A study of Homo sapiens with 12 samples.

Results

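The activation of HuR-knockout Jurkat cells by phorbol 12-myristate 13-acetate (PMA) and ionomycin was described across all 2587 genes of the authors' deposited table of comparisons. Jurkat, an established line, comes from a human T-cell leukaemia. HuR, the product of ELAVL1, is an RNA-binding protein that recognises stretches rich in U or in A and U, known from many cytokine and growth-regulator mRNAs. The libraries were chosen by title, as 3 of HuRKO cells activated for 24 h with 20 ng/mL PMA plus 500 ng/mL ionomycin and 3 of HuRKO cells left untreated for the same time, 6 of 12 poly(A) RNA libraries in the series. The other 6 hold wild-type (WT) Jurkat cells under the same 2 conditions. All groups grew in RPMI1640 with 10% fetal bovine serum. The sources used here do not give how HuR was removed or whether the HuRKO cells are 1 clone, and they do not say that replicates were separate cultures, so each false discovery rate (FDR) rests on the spread between libraries that may be technical replicates.

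PMA switches on protein kinase C and Ras guanine exchange factors, and with them the MAP kinase and NF-kB pathways. Ionomycin lets calcium into the cell, where calcineurin frees the NFAT transcription factors. PMA and ionomycin together bypass the T-cell receptor. In T cells they are known to induce immediate-early transcription factors, then cytokines, surface markers such as CD69, and genes that feed back on the same pathways. Jurkat cells carry an immature T-cell programme with recombinase and CD1 genes.

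Levels are normalised counts of a group, rebuilt from the table's mean and its 4 fold changes, and they come without a spread between libraries. A change is called where the deposited FDR is below 0.05. The difference between the HuRKO and the WT response of a gene is given on the log2 scale with an upper bound of its standard error (written ±), and it is said to differ where a bounded test with Bonferroni correction passed 0.05. A group level below 1 normalised count, which is 3 counts over the 3 libraries, lies below the floor, and a fold against it is given as at least that fold. Depth per library is unknown here, so no interval was computed. As RNA came from whole cultures, fewer cells of a kind and less RNA per cell cannot be told apart. The list itself is a selection. Every gene in it passed FDR 0.05 with a change above 4-fold in at least 1 of the 3 other comparisons (WT activation, HuRKO against WT at rest, HuRKO against WT after activation), and 0 genes are listed through the HuRKO response alone. A gene that changed in HuRKO cells without passing in another comparison is therefore missing, and counts below are counts among listed genes. The listed genes number 941 past 4-fold in WT activation and in neither comparison of the genotypes, 657 in the comparison of the genotypes after activation alone, and 167 in the one at rest alone, leaving the HuRKO response aside.

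Activation raised 1504 of the 2587 listed genes in HuRKO cells (58.1%) and lowered 479 (18.5%), with 604 not called. By 4-fold or more, 1004 rose (38.8%) and 278 fell (10.7%). The median log2 change over all listed genes was 1.45 in the authors' deposited table. These shares of all listed genes, 58.1% higher and 18.5% lower, are the background for every count of list members given below, as are 52.0% and 21.8% for WT cells. Of the risen genes, 171 lay below the floor before activation, and of the fallen genes 28 lay below it afterwards. The counts include 1117 of 1868 protein-coding genes higher and 356 lower, 113 of 193 long intergenic RNAs higher and 34 lower, and 117 of 179 antisense RNAs higher and 16 lower. Reads of an antisense RNA and of its partner cannot be told apart without the strand setting of the counting, which is not given in the sources used here.

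**Figure D1:**
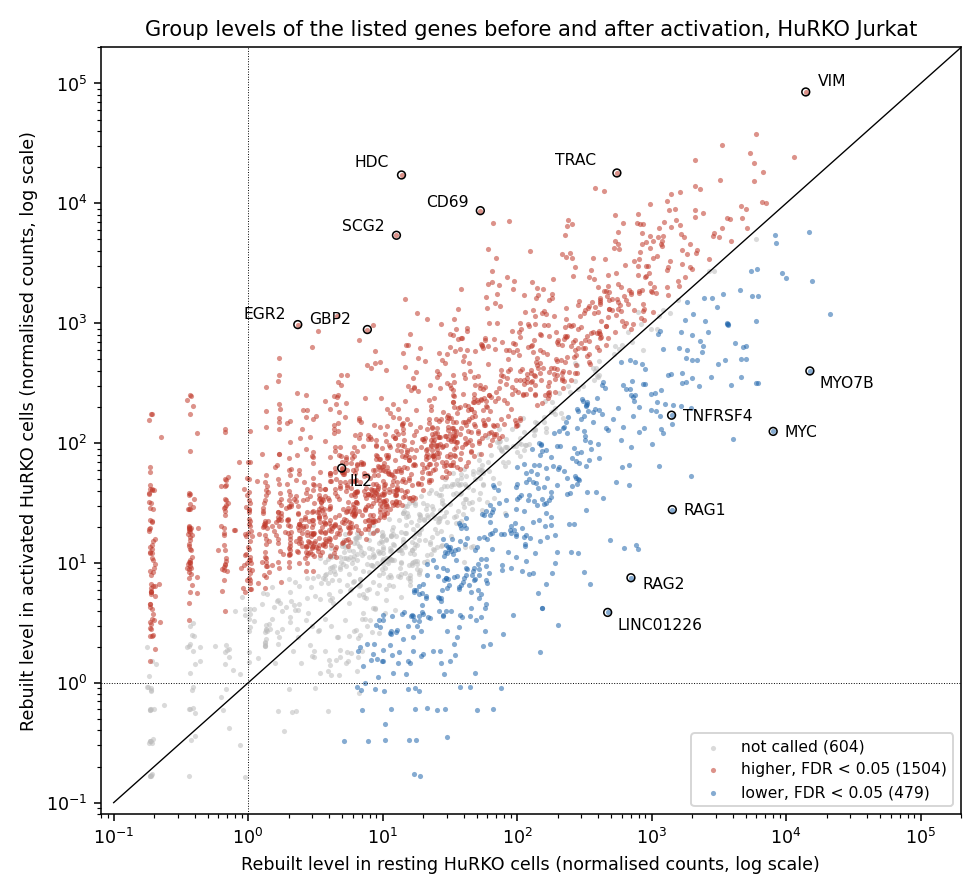
Rebuilt group levels of the 2587 listed genes in resting (horizontal axis) and activated (vertical axis) HuRKO cells, both in normalised counts on log scales. Each point is a gene, red for the 1504 called higher, blue for the 479 called lower and grey for the 604 not called. The solid line marks equal levels and the dotted lines the floor of 1 normalised count. VIM sits highest on the vertical axis at 84918, and MYC, RAG1 and RAG2 lie far below the line.

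ELAVL1 (ENSG00000066044.14, chr19:7958579-8005659, minus strand, hg38), the targeted gene, was at 596 in resting and 471 in activated HuRKO cells, against 4042 and 2552 in WT cells. Both HuRKO levels were thus below both WT levels. Within HuRKO cells ELAVL1 fell 1.27-fold on activation (FDR 0.0021 in the authors' deposited table). Of the T-cell marker genes in the table, TRAC and CD28 rose, CD7 fell and CD2 was not called. The marker lists held 12 T-cell genes, 7 B-cell, 8 monocyte, 4 dendritic, 10 erythroid, 4 neural, 6 fibroblast and 5 epithelial genes. The natural killer and cytotoxic list held 10. The table lists genes by their changes, so presence in it does not show which markers were expressed. The B-cell list had 2 of its genes in the table, with a summed level of 25.4 at rest and 314.4 after activation, the monocyte list 2 with 10.0 and 105.8, the dendritic list 2 with 10.5 and 132.7, the erythroid list 3 with 48.5 and 55.5, the neural list 4 with 146.6 and 214.4, the fibroblast list 1 (COL1A1, which rose from 79.8 to 144), and the epithelial list 0. The natural killer and cytotoxic list had 9, of which 7 rose and 1 fell, with a summed level of 579 at rest and 9067 after activation. Markers outside the table were not analysed here, and the part of such cells in the results was not tested.

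The largest rise was that of HDC (ENSG00000140287.10, chr15:50241947-50266026, minus strand), histidine decarboxylase, the enzyme that makes histamine. HDC went from 13.8 to 17238, a rise of 1248-fold (FDR 7.7e-152 in the authors' deposited table). In WT cells HDC rose 1229-fold, from 3.81 to 4682, so the 2 folds were nearly alike on different levels. SCG2, a granin of secretory vesicles, rose 427-fold, from 12.7 to 5413. EGR2, an immediate-early zinc finger factor, rose 416-fold, from 2.34 to 974. All 3 were nearly silent before stimulation. MB, which encodes the oxygen carrier myoglobin, rose 301-fold to 509. ZNF683, the lymphocyte transcription factor Hobit, rose 251-fold to 1144. CRTAM, a surface receptor of activated cytotoxic T cells, rose 196-fold to 327. Each of these 3 reached a higher level in activated WT cells, at 11674 for MB, 1526 for ZNF683 and 1432 for CRTAM.

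The other members of the 12 largest rises were the integrin alpha chain ITGAD (from below 1 to 246), the prostaglandin transporter SLCO2A1 (1.69 to 372), GPR84, a receptor for medium-chain fatty acids (1.37 to 292), the microRNA host transcript MIR3142HG (2.98 to 627), the keratin KRT79 (from below 1 to 205) and the potassium channel KCNJ13 (from below 1 to 229). KCNJ13 passed narrowly although its rise was at least 229-fold (FDR 0.045, authors' deposited table), and its WT levels were both below the floor.

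The largest falls included the recombinase genes of lymphocyte development. RAG2 (ENSG00000175097.7, chr11:36575574-36598279, minus strand) went from 702 to 7.52, a fall of 93.3-fold (FDR 2.7e-83 in the authors' deposited table). RAG1 (ENSG00000166349.9, chr11:36510709-36593156, plus strand) went from 1425 to 27.9, a fall of 51.2-fold (FDR 5.3e-132 in the authors' deposited table). The annotated spans of RAG1 and RAG2 overlap on opposite strands, so their counts may share reads. PTCRA, the pre-T-cell receptor alpha chain, fell 37.6-fold, from 317 to 8.41. All of these genes act before a T cell has a finished receptor.

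MYC (ENSG00000136997.17, chr8:127735434-127741434, plus strand), a growth-promoting transcription factor, fell from 8009.6 to 125 in HuRKO cells, 64-fold (FDR 7.1e-68 in the authors' deposited table). In WT cells MYC fell 2.81-fold, from 9353 to 3323. The long non-coding RNA LINC01226 had the largest fall of all under the naming rule, 122-fold, from 471 to 3.86. MYO7B, an unconventional myosin, fell 37.6-fold, from 15018 to 399.6. SH3TC1, a protein with SH3 and tetratricopeptide repeats, fell 37.6-fold to 108. DCLK3, a doublecortin-like kinase, fell 52.9-fold to 6.62. FRMPD4, a scaffold protein, and GALNT9, a glycosyltransferase, fell at least 75.4-fold and at least 65.9-fold to levels below the floor. CXorf49 and CXorf49B fell 54.7-fold and 60.8-fold, but they are near-identical copies and their separate values are uncertain.

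**Figure D2:**
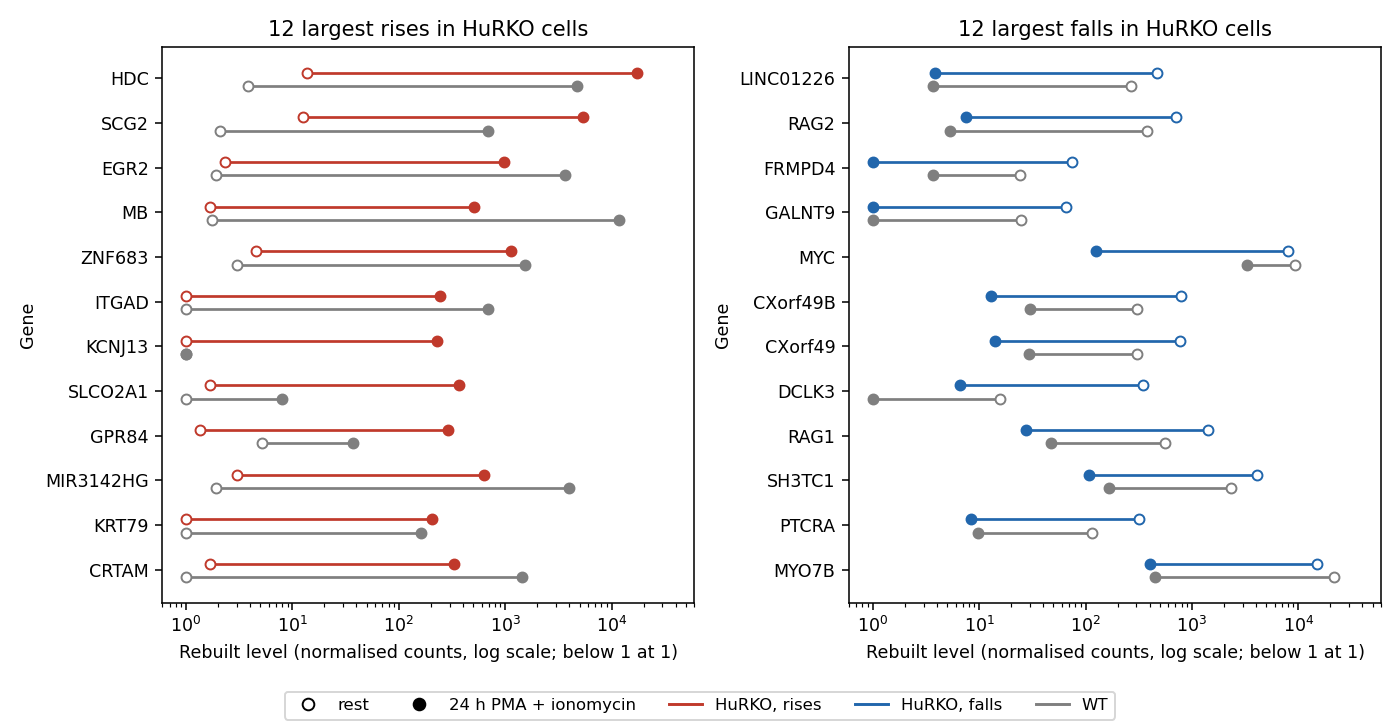
Rebuilt levels (normalised counts, log scale) of the 12 genes with the largest rises and the 12 with the largest falls in HuRKO cells, among genes reaching 50 normalised counts. Open circles are resting and filled circles activated groups, coloured lines HuRKO and grey lines WT, and levels below 1 are drawn at 1. The HuRKO and WT lines run in the same direction for every gene shown except KCNJ13, whose WT levels are both below the floor, and the MYC line is far shorter in WT cells.

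The smallest FDR values marked strongly expressed genes. CD69 (ENSG00000110848.8, chr12:9752486-9760901, minus strand), an early surface marker that keeps lymphocytes in tissue, went from 53.3 to 8685, 163-fold higher, beside 152-fold in WT cells. ANTXR2, an anthrax toxin receptor that binds matrix, rose 103-fold, from 66 to 6818. SLFN5, a Schlafen family regulator, rose 28.5-fold, from 441 to 12587. ZFP36L1, a protein that binds AU-rich elements and promotes mRNA decay, rose 35.8-fold, from 376 to 13464. For these 4 genes and for TRAC and TRAV8-4 the FDR is listed as 0 in the authors' deposited table. SEMA4A, a semaphorin, rose 24.1-fold to 5449, and IL16, a chemoattractant precursor, rose 27.8-fold to 6511. Among falls, PMEPA1, a membrane protein that dampens TGF-beta signalling, went from 6166 to 316 (FDR 5.1e-286 in the authors' deposited table). SLC29A1, the equilibrative nucleoside transporter, went from 3867 to 306, and the adhesion protein gene KIRREL1 from 1169 to 130.0.

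Among the listed genes open to naming, the largest normalised counts after activation, which are not corrected for transcript length, belonged to VIM, STT3B, HMGCS1, PTPRC, SOX4 and CASC15. VIM, the intermediate filament vimentin, rose 6.07-fold, from 13997 to 84918, while its WT levels of 9144 and 8646 were not called different. STT3B, a catalytic subunit of oligosaccharyltransferase, rose 6.27-fold to 37756, with WT levels of 8691 and 9055 that were not called different. The VIM response differed between HuRKO and WT cells by 2.68 ± 0.21 on the log2 scale, and that of STT3B by 2.59 ± 0.20. SOX4, a transcription factor of progenitors, rose 2.15-fold in HuRKO and fell 2.7-fold in WT cells. PTPRC, the phosphatase CD45, rose 4.92-fold to 26319.8, and the long non-coding RNA CASC15, a neighbour of SOX4, 11-fold to 23160.0.

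Immediate-early transcription factors were the first tier of the response examined. Of 15 in the table, 13 were higher and 2 lower, with a median log2 change of 3.13 in the authors' deposited table beside 1.45 over all listed genes. EGR1 went from 87.2 to 7109.9, 81.5-fold. EGR3 and EGR4, relatives of EGR1 and EGR2, rose 18.7-fold and 16.7-fold. FOS, FOSL1, JUN, JUNB and JUND, the subunits of AP-1, rose 8.27-fold, 7.84-fold, 1.48-fold, 3.24-fold and 4.41-fold. All EGR and AP-1 genes in the list thus moved up after 24 h. The 2 lower members were MYC and NR4A1. The orphan nuclear receptors split. NR4A2 rose 32.8-fold to 33.3 and NR4A3 13.8-fold to 108, whereas NR4A1 fell 2.08-fold, from 197 to 94.8. In WT cells NR4A1 rose 8.3-fold, from 203 to 1683, and the difference between the responses was -4.11 ± 0.31.

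EGR1 and EGR2, with the largest rises in that list, were the only 2 of its 10 members with a promoter in the RefSeq table (GRCh38.p14) that held a CArG box, the binding letters of serum response factor, on either strand in the 250 bases before the start. Of all 35116 promoters, searched from 250 bases before to 50 after the start, 1.29% held this motif, against 2.41% of the 871 promoters of genes that rose 4-fold or more and 2.03% of the 197 promoters of genes that fell as much. NR4A2, EGR3, IER3, FOSL1 and MYC had no promoter in RefSeq here and were not searched. The rise of NR4A2 was the next largest in that list. A match is a description of letters, and this motif was chosen after the values were seen. The windows are shown because they are the matches in the 2 immediate-early genes that rose most, 5′ to 3′ on the strand of the gene, with the motif in capitals. They lie at chr5:138465386-138465415 (plus strand, motif beginning 83 bases before the start) for EGR1 and chr10:62816418-62816447 (minus strand, 71 bases before) for EGR2.
EGR1: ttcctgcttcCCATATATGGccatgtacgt
EGR2: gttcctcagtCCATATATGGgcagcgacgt

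Genes of the NF-kB pathway rose in 9 of 10 cases, with 0 lower. TRAF1, an adaptor of TNF receptors, went from 60.8 to 2112, 34.7-fold. BCL3, a nuclear cofactor of NF-kB, rose 24.4-fold, RELB, a subunit, 9.58-fold, and TNFAIP3, the ubiquitin editor A20 that ends NF-kB signalling, 8.24-fold. NFKB2 rose 3.79-fold, the adhesion molecule ICAM1 2.78-fold, the inhibitor of apoptosis BIRC3 2.49-fold, REL 2.37-fold and the inhibitor NFKBIE 1.94-fold. NFKBID, a nuclear inhibitor, was at 184 and 186 and was not called. In WT cells all 10 rose, each by over 4-fold, beside 52.0% of all listed genes. A rise of that size in WT cells by itself lists a gene, so the next count rests on members with high WT responses. The bounded test found the response of 7 of the 10 more negative in HuRKO cells, beside 10.4% of all listed genes, among them NFKBID (166 to 1373 in WT cells, difference -3.03 ± 0.36).

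The NF-kB motif, searched by its usual consensus on both strands, lay in 10.1% of the promoters of genes that rose 4-fold or more, in 5.58% of those of genes that fell as much and in 5.91% of all promoters. AP-1 letters, TGANTCA, lay in 9.07%, 5.58% and 7.71%. NFAT letters, GGAAA, lay in 62.5%, 46.7% and 61.2%. An NF-kB match can itself hold the NFAT letters. Of 8 NF-kB pathway members with a promoter in the RefSeq table, 5 had an NF-kB match before the start. The match nearest the start with 10 bases on either side is shown for the 5 so that the letters can be compared, 5′ to 3′ on the gene's strand with the motif in capitals. They lie at chr10:102395674-102395703 (plus) for NFKB2, chr2:60881518-60881547 (plus) for REL, chr6:137867194-137867223 (plus) for TNFAIP3, chr19:35900613-35900642 (minus) for NFKBID and chr11:102317339-102317368 (plus) for BIRC3.
NFKB2: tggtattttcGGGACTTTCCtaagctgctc
REL: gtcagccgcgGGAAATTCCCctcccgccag
TNFAIP3: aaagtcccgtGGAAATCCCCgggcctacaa
NFKBID: agcgcgacccGGGGACTCCCaggcctgtgg
BIRC3: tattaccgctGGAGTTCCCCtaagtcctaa

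MAP kinase phosphatases and feedback inhibitors of signalling rose in 10 of 12 cases and fell in 2. The phosphatase DUSP6, which inactivates ERK, rose 24.1-fold, from 33.4 to 804. SPRY4 and SPRY1, Sprouty inhibitors of Ras signalling, rose 19.5-fold and 11.9-fold, and DUSP10 rose 19.3-fold. For DUSP6, SPRY4 and SPRY1 the HuRKO rise was larger than the WT rise, by 2.51 ± 0.33, 1.58 ± 0.25 and 1.46 ± 0.18 on the log2 scale. DUSP2, a nuclear phosphatase of activated lymphocytes, rose 2.42-fold, from 1365 to 3302, less than its 31.1-fold in WT cells (difference -3.68 ± 0.23). DUSP9 fell at least 44.6-fold, from 44.6 to below the floor, and SOCS2, a suppressor of cytokine signalling, fell 15.3-fold.

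On the calcium arm, 5 listed genes were in the table, with 4 higher and 1 lower. NFATC1, an NFAT factor that induces its own gene, rose 1.46-fold, from 869 to 1269.6, against 8.36-fold in WT cells, from 779 to 6512. The difference for NFATC1 was -2.52 ± 0.22. The calcium release channel ITPR1 rose 1.49-fold and the kinase CAMK2D 3.78-fold, both less than in WT cells (differences -1.53 ± 0.19 and -1.35 ± 0.21). The plasma-membrane pump ATP2B4 rose 1.25-fold and the endoplasmic-reticulum pump ATP2A3 fell 2.53-fold. In WT cells ATP2B4 fell from 7067 to 1586 and ATP2A3 fell 5.51-fold, so these differences were positive, at 2.47 and 1.12. By the bounded test 2 of the 5 responses were more positive and 3 more negative in HuRKO cells. The shares over all listed genes were 9.78% and 10.4%. All 5 changed over 4-fold in WT cells, which by itself lists a gene. These counts thus rest on members with large WT responses. The table held 4 genes of the protein kinase C list, namely a relative, an exchange factor, a substrate and a relative of that substrate. PRKD3, a protein kinase D, rose 1.73-fold. RASGRP2, an exchange factor, fell 2.17-fold and MARCKSL1, a MARCKS relative, fell 1.52-fold, while the substrate MARCKS stood at 532 and 651 and was not called.

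Of 20 transcription factors of T-cell differentiation, 14 were higher and 4 lower, beside 58.1% and 18.5% of all listed genes, so the counts set no direction apart and single members are described. BCL6, the factor of follicular helper cells, rose 21.7-fold, from 68.1 to 1476. STAT5A rose 14.8-fold to 7939, TOX2 13.8-fold to 1953 and MAF at least 36.8-fold to 36.8. GATA3, the type 2 helper factor, rose 4.73-fold, from 1018 to 4812, with WT levels of 1001 and 851 that were not called different. TBX21, the type 1 helper factor, rose 4.43-fold, from 10.4 to 45.9, far less than its 67.1-fold in WT cells. The 2 factors thus differed from WT in opposite directions, by 2.48 ± 0.20 for GATA3 and -3.92 ± 0.41 for TBX21. IRF8, an interferon regulatory factor, fell 2.24-fold where WT cells raised it from 128 to 487.

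Cytokine and chemokine genes rose in 18 of 21 cases, with 0 lower. Their median log2 change was 4.73 in the authors' deposited table, or 3.09 with levels below the floor set to the floor. IL2 (ENSG00000109471.4, chr4:122451470-122456725, minus strand), the T-cell growth factor, went from 4.96 to 61.8, 12.5-fold (FDR 1.8e-08 in the authors' deposited table). In WT cells IL2 went from 1.39 to 16006. Activation thus induced IL2 in both genotypes and to a level in WT cells that HuRKO cells did not approach, a difference of -9.85 ± 1.09. XCL1 and XCL2, lymphotactins with near-identical sequences that make their separate values uncertain, rose 67.7-fold and 58.5-fold in HuRKO cells, to 590.0 and 444, beside 50373 and 37914 in activated WT cells.

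CCL4 and CCL3, inflammatory chemokines, rose at least 156-fold and at least 62.8-fold from below the floor, with CCL4L2 and CCL3L3 as close copies that make their separate values uncertain. CSF2, the growth factor of granulocytes and macrophages, rose 27.4-fold, from 1.01 to 27.6. IL3 rose at least 19.6-fold from below the floor to 19.6, IL13 8.88-fold, IL23A 5.08-fold, LIF 4.23-fold, CCL5 4.12-fold and IL4 2.95-fold. IL16 was the only member whose rise was larger in HuRKO cells by the bounded test (difference 1.48 ± 0.19). Interferon gamma (IFNG) was at 1.53 after activation from below the floor and was not called (FDR 0.052 in the authors' deposited table). CCL1 was at 3.46 and 6.78 and TGFB2 at 2.41 and 4.53, neither of them called. In WT cells CCL1 rose 170.1-fold to 1379, and the CCL1 responses differed by -6.44 ± 1.13.

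Ligands of the TNF family rose in 10 of 11 cases, with 0 lower. LTB, lymphotoxin beta, went from 42.2 to 919.6, 21.8-fold, while its WT levels of 389.9 and 492 were not called different. TNFSF10, the death ligand TRAIL, went from 75.1 to 1398, 18.6-fold, next to 18.6-fold for the rise in WT cells. LTA rose 15.6-fold to 179, TNF 10.3-fold to 65.7 and CD70, the ligand of CD27, 8.85-fold to 285. TNFSF14, the ligand LIGHT, rose 14-fold to 70.1 in HuRKO and 956-fold to 4993 in WT cells. TNFSF4, the ligand of OX40, rose 7.37-fold from 48.2 to 355, and its WT levels of 304 and 276 were not called different.

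The receptor of that ligand moved the other way. TNFRSF4 (ENSG00000186827.10, chr1:1211326-1214138, minus strand), which encodes OX40, fell from 1407 to 171 in HuRKO cells, 8.24-fold (FDR 7.7e-55 in the authors' deposited table), and rose from 425 to 1488 in WT cells. The difference was -4.85 ± 0.27. TNFRSF9, the costimulatory receptor 4-1BB, rose 96.2-fold to 163, and TNFRSF1B, TNF receptor 2, 49.9-fold to 475. TNFRSF18, which encodes GITR, fell 5.73-fold at a low level, from 9.03 to 1.58. Of 9 genes of the family, 5 were higher and 2 lower, near the background of 58.1% and 18.5%.

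Receptors of cytokines and chemokines rose in 15 of 21 cases and fell in 2, with 58.1% and 18.5% as the shares over all listed genes. IL2RA, the alpha chain CD25 of the IL-2 receptor, went from 4.67 to 251, 53.6-fold. IL21R rose 32.5-fold to 617 and IL4R 7.3-fold to 761. Chemokine receptors CCR2, CCR1, CCR4 and CCR7 rose 64-fold, 27.8-fold, 13.3-fold and 6.76-fold. CCR4, which marks type 2 helper and skin-homing cells, rose to 536 in HuRKO cells and fell in WT cells from 159 to 102, a difference of 4.37 ± 0.37. ACKR3, a scavenger of CXCL12, rose 3.19-fold to 17.9 and fell 6.58-fold in WT cells (difference 4.39 ± 0.69). IL7R, needed for survival of resting T cells, fell 3.34-fold, and CXCR4, the CXCL12 receptor, fell 2.02-fold, from 5461 to 2708.

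Surface markers of activation rose in 11 of 13 cases, with 0 lower. CD44, a hyaluronan receptor, rose at least 173-fold from below the floor to 173. ICOS, a costimulatory receptor, rose 74.5-fold to 152, SLAMF7 67.8-fold to 1225 and LGALS1, galectin 1, 49.8-fold to 3468. The 7 inhibitory receptors in the table were all higher. CD160 rose at least 175-fold to 175, PDCD1, which encodes PD-1, 10.6-fold to 318, and BTLA 13-fold to 57.4. LAIR1, a collagen receptor, rose 1.53-fold in HuRKO cells to 1996 and fell 3.49-fold in WT cells to 479, a difference of 2.42 ± 0.18. CD200, a ligand that restrains myeloid cells, rose 12.5-fold to 33.9, against 5854 in activated WT cells.

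**Figure D3:**
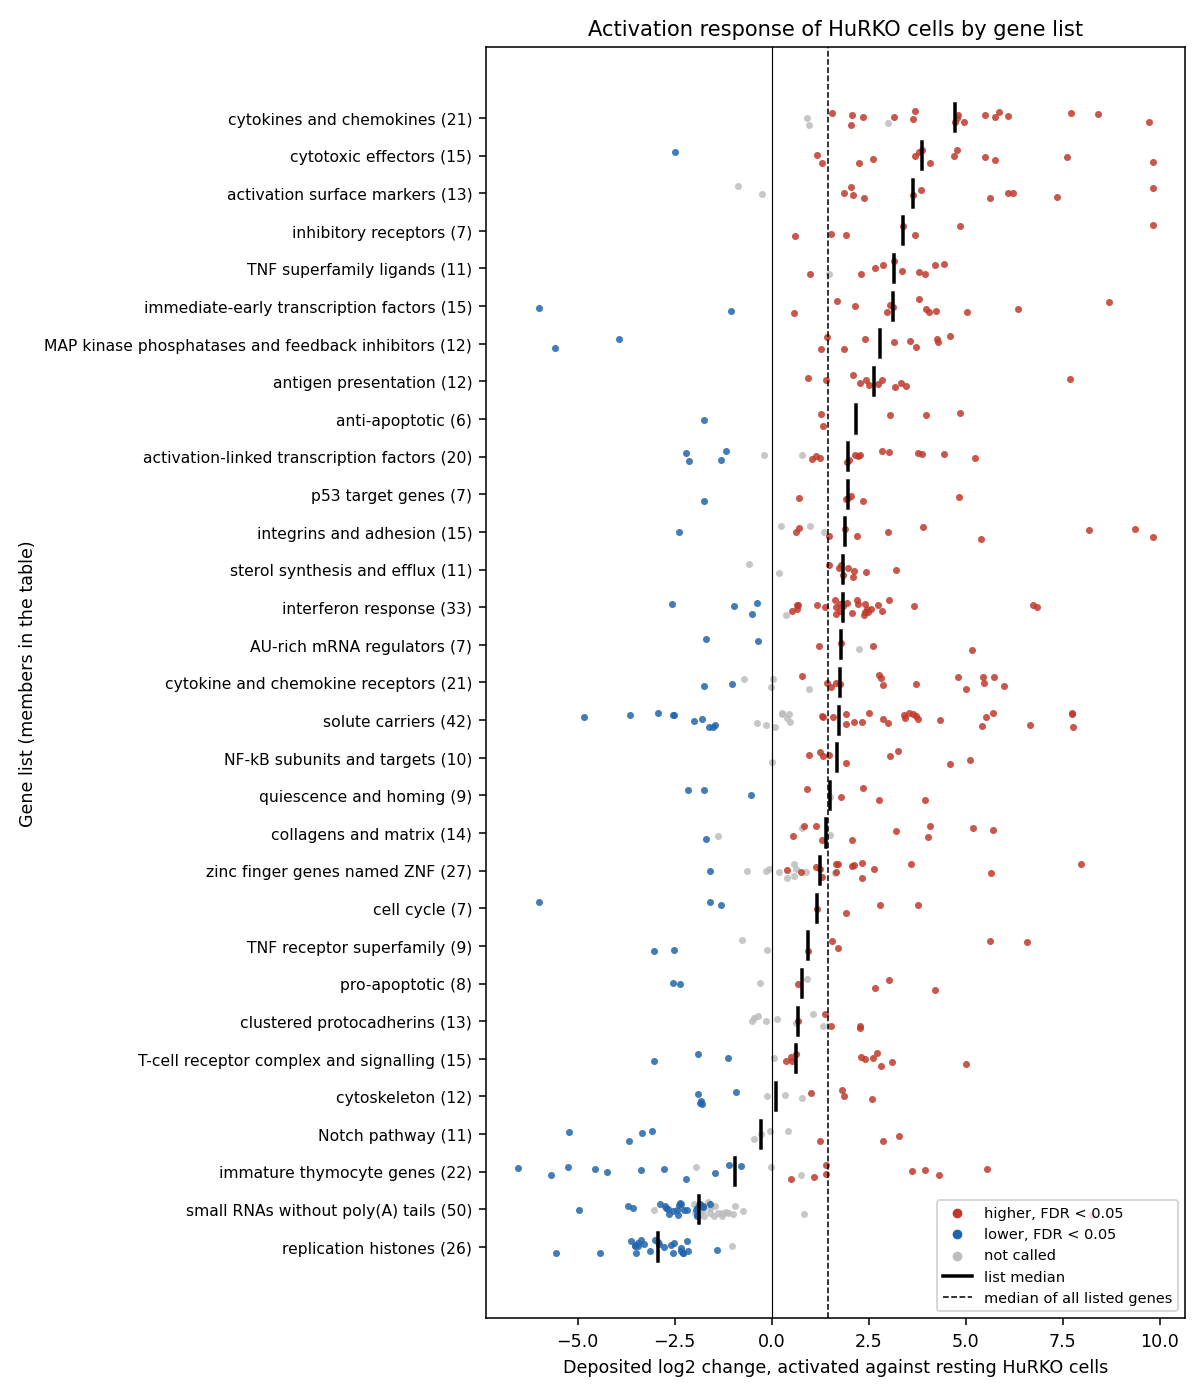
Deposited log2 change between activated and resting HuRKO cells (horizontal axis) for members of gene lists with at least 6 genes in the table, ordered by median. Points are genes, red for higher, blue for lower and grey for not called, with small vertical shifts for legibility, black bars are list medians and the dashed line is the median of all listed genes, 1.45. On these deposited changes, with no floor applied, cytokines and chemokines have the highest median, 4.73, and replication histones the lowest, -2.92. With levels below the floor set to it, the cytokine median is 3.09, below the 3.71 of cytotoxic effectors.

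Components of the T-cell receptor and its signalling rose in 11 of 15 cases and fell in 3, beside 6 higher and 8 lower in WT cells. TRAC (ENSG00000277734.7, chr14:22547506-22552154, plus strand), the constant region of the receptor alpha chain, went from 552 to 17916, 32.5-fold. It started lower than in WT cells, at 3510.1, and both genotypes ended within 1.5-fold of each other, WT cells at 23285. The variable segments TRAV8-4 and TRAV8-2 rose 30.6-fold and 31.9-fold, and TRAV17 and TRAV16 32.2-fold and 26.6-fold. By annotated type, 11 of 12 T-cell receptor variable genes and 3 of 3 joining genes were higher, with 0 lower. Variable genes share sequence, so their separate values are uncertain. Of 9 immunoglobulin variable genes, 1 was higher and 5 were lower.

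CD28, the costimulatory receptor, rose 6.1-fold, from 1484 to 9052, while its WT levels of 1495 and 1342 were not called different (difference 2.77 ± 0.20). LCP2, the adaptor SLP-76, rose 8.64-fold. THEMIS, SH2D1A and GRAP2, which encode signalling proteins of the same pathway, rose 1.42-fold, 1.54-fold and 1.3-fold in HuRKO cells. In WT cells these 3 genes fell, by 9.06-fold, 4.13-fold and 5.42-fold. Their responses differed by 3.68 ± 0.20, 2.67 ± 0.20 and 2.81 ± 0.17 on the log2 scale. The coreceptors CD8B and CD4 fell 8.13-fold and 2.17-fold, and CD7 fell 3.74-fold.

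Genes of the immature thymocyte programme split, with 8 higher and 11 lower of 22, against 4 higher and 17 lower in WT cells. Beside RAG1, RAG2 and PTCRA, the terminal transferase DNTT fell 23.5-fold, the lipid-presenting molecules CD1E and CD1B 19-fold and 10.3-fold, and TCF7, the transcription factor TCF-1, 6.88-fold. The other side held progenitor factors. LMO2, an oncogenic adaptor of T-cell leukaemia, rose 46.7-fold, from 4.51 to 211. LYL1 rose 19.8-fold to 629.9, HHEX 15.4-fold to 225 and MME, the antigen CD10, 12.4-fold to 1943. ETS1 and MYB rose 2.63-fold and 1.42-fold in HuRKO cells and fell 2.88-fold and 3.15-fold in WT cells, with differences of 2.92 ± 0.16 and 2.16 ± 0.19.

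Notch is a receptor that drives early T-cell development. Of 11 genes of its pathway, 3 were higher, 4 lower and 4 not called. HES4 fell 37.2-fold, from 1961 to 52.7. NOTCH3 fell 12.9-fold, from 4604 to 358. DTX1, a ubiquitin ligase induced by Notch, fell 10.0-fold, and HES1, a repressor, 8.47-fold. JAG2, a ligand, rose 2.36-fold, and the coactivators MAML2 and MAML3 rose 9.67-fold and 7.34-fold. In WT cells the same 4 genes, HES4, NOTCH3, DTX1 and HES1, fell 8.99-fold, 13.3-fold, 11.2-fold and 7.72-fold.

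Genes of quiescence and homing gave 5 higher and 3 lower of 9, where 58.1% and 18.5% of all listed genes were higher and lower. KLF2, a factor of resting T cells, fell 4.48-fold, from 153 to 34.2. BTG1 and BTG2, antiproliferative proteins, rose 15.5-fold and 5.1-fold. S1PR1, the receptor that lets T cells leave lymph nodes, rose 1.88-fold, from 136 to 256, and fell 3.41-fold in WT cells, a difference of 2.68 ± 0.39.

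Interferon-response genes rose in 28 of 33 cases and fell in 4, whereas all 33 rose in WT cells. All but USP18, ISG15, IFI6 and OAS2 rose over 4-fold in WT cells, which by itself lists a gene. The comparison with HuRKO cells thus rests mostly on members with high WT responses. GBP2 and GBP5, interferon-induced GTPases, rose 115-fold and 107-fold in HuRKO cells. IFIH1, a sensor of double-stranded RNA, rose 12.7-fold, from 5.39 to 68.3. IFIT1, which binds viral RNA caps, fell 5.91-fold, from 37.2 to 6.3. In WT cells IFIT1 rose 5.72-fold to 438, a difference of -5.08 ± 0.47. USP18, which removes ISG15 from proteins, fell 1.97-fold, ISG15 itself 1.41-fold and IFI6 1.3-fold, and each of the 3 rose in WT cells. The bounded test called 14 of the 33 responses more negative in HuRKO cells and 0 more positive, beside 10.4% and 9.78% of all listed genes. Antigen presentation genes were higher in 12 of 12 cases. HLA-B rose 10.2-fold to 9822, NLRC5, the transactivator of class I genes, 11-fold to 2953 and CD74, the invariant chain, at least 40.8-fold to 40.8. HLA genes share sequence and differ between individuals, so their separate values are uncertain.

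Genes of cell death moved in both directions. Anti-apoptotic genes were higher in 5 of 6 cases. BCL2A1, a BCL2 relative, rose 28.9-fold, from 2.1 to 60.5, and IER3 15.7-fold, from 247 to 3879. CFLAR, which blocks caspase 8, rose 2.42-fold to 1557, against 6.79-fold to 4919 in WT cells. GADD45B fell 3.33-fold. Of 8 pro-apoptotic genes, 4 were higher and 2 lower. BMF, a BH3-only protein, rose 8.21-fold to 986 and FASLG 6.35-fold to 21.8. BID, the BH3-only protein that death receptors cleave, fell 5.77-fold, from 2004 to 347, and the kinase DAPK1 fell 5.14-fold. HRK, at 14.3 and 26.9, and BOK, at 41.4 and 33.8, were not called.

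Among p53 target genes, 6 of 7 were higher. TP53INP1 rose 28.3-fold, from 58.9 to 1666, more than its 4.75-fold in WT cells (difference 2.57 ± 0.31). CDKN1A, the cell-cycle inhibitor p21, rose 3.81-fold, less than in WT cells (difference -1.97 ± 0.40), and so did BTG2 (difference -2.60 ± 0.24). By the bounded test 2 of the 7 responses were more positive and 4 more negative in HuRKO cells. Over all listed genes the shares were 9.78% and 10.4%. All members but CCNG2 changed over 4-fold in WT cells, which by itself lists a gene. The comparison thus rests mostly on members with large WT responses. Of 7 cell-cycle genes in the table, 4 were higher, near the 58.1% of all listed genes, and 3 lower. The cyclins CCND1 and CCND2 rose 13.7-fold and 2.24-fold. MYCN rose 6.95-fold, from 96.3 to 669.5, while MYC fell as given above and MYCL fell 2.99-fold.

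Replication histones, whose mRNAs are made in S phase and mostly lack poly(A) tails, were lower in 25 of 26 cases, with 0 higher and a median log2 change of -2.92 in the authors' deposited table. Their summed level went from 1752 to 301.7. HIST1H4E fell 4.54-fold, from 178 to 39.3, and HIST2H3D 12.3-fold, from 44.7 to 3.64. In WT cells 25 of 26 were lower as well. Small RNAs without poly(A) tails gave 25 lower, 1 higher and 24 not called of 50 in HuRKO cells and 9 lower and 2 higher in WT cells. By annotated type, 13 of 15 small nucleolar RNAs were lower and 0 higher. The libraries were made from poly(A) RNA, and the part of carried-over RNA without tails in these values was not tested.

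Cytotoxic effector genes rose in 14 of 15 cases. GZMA, granzyme A, went from 255 to 6685, 26.2-fold, and PRF1, perforin, from 188 to 1148, 6.11-fold. GNLY rose 17-fold, GZMB 14.8-fold and GZMK 13.1-fold. GZMH fell 5.64-fold, from 27.2 to 4.83, and rose 8.49-fold in WT cells (difference -5.58 ± 0.80). Killer-cell lectin receptors KLRD1, KLRC1, KLRF1 and KLRK1 rose as well, the first 13.9-fold and the others from below the floor to levels of 19.4, 10.6 and 9.88.

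Integrins and adhesion molecules were higher in 11 of 15 cases and lower in 1, against 58.1% and 18.5% over all listed genes. ITGAX, an integrin alpha chain of myeloid cells, rose at least 121-fold to 121. ITGAL and ITGA4, the alpha chains of LFA-1 and VLA-4, rose 1.63-fold and 1.55-fold in HuRKO cells and fell 5.04-fold and 3.54-fold in WT cells. Their responses differed by 3.04 ± 0.17 and 2.46 ± 0.16 on the log2 scale. SELPLG, the P-selectin ligand, fell 5.26-fold. Collagens and matrix genes were higher in 10 of 14 cases. COL6A3 rose 52.5-fold to 427, TIMP1, an inhibitor of matrix proteases, 36.6-fold to 1317 and MMP9 16.2-fold to 141. Cytoskeletal genes other than VIM gave 3 higher and 5 lower of 11. FLNA, filamin A, rose 2.03-fold, from 4641 to 9413, and TAGLN2 and MAP1A fell 3.7-fold and 3.57-fold.

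Enzymes of sterol synthesis, with the efflux genes of the same list, were higher in 9 of 11 cases, with 0 lower. HMGCS1, the first committed step towards mevalonate, rose 9.24-fold, from 3321 to 30689, next to 10.5-fold in WT cells. MSMO1 rose 5.38-fold, MVD 4.37-fold and TM7SF2 4.31-fold. The cholesterol exporters ABCA1 and ABCG1 were not called, at 22.3 and 14.8 for ABCA1 and 369 and 423 for ABCG1. Solute carriers gave 24 higher and 10 lower of 42, shares near the 58.1% and 18.5% of all listed genes. The folate carrier SLC19A1 fell 7.64-fold, from 2266 to 296. Of 4 genes of glycolysis and hypoxia in the table, 3 were higher and 1 lower. ALDOC, an aldolase, and SLC2A3, a glucose transporter, rose 7.17-fold and 7.95-fold, and EGLN3, an oxygen-sensing prolyl hydroxylase, fell 8.1-fold, from 77.7 to 9.6.

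Regulators of AU-rich mRNAs, the kind of RNA that HuR binds, shared a list with ribonucleases. Few genes of this list were in the table. Of 7, 4 were higher, near the 58.1% of all listed genes, and 2 lower, beside 18.5%, so the counts set no direction apart. ZFP36L1 rose as given above and its relative ZFP36L2 fell 3.22-fold, from 2305 to 717. The ribonuclease genes ZC3H12A, encoding Regnase-1, and ZC3H12D rose 3.48-fold and 6.15-fold. In WT cells ZFP36L1 rose 52.6-fold and ZFP36L2 fell 5.11-fold.

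The HuRKO response was set beside that of WT cells, with which it shares no library. WT cells raised 1346 of the listed genes (52.0%) and lowered 565 (21.8%). Both responses were called in the same direction for 1028 rises and 295 falls. They were called in opposite directions for 136 genes higher in HuRKO and lower in WT cells and for 60 genes the other way round. HuRKO cells alone had a call for 340 rises and 124 falls. Across the listed genes, which are not independent replicates, the log2 changes of the 2 responses had a Pearson correlation of 0.647 and a Spearman correlation of 0.63. Of 1157 genes induced 4-fold or more in WT cells, 932 rose in HuRKO cells, 16 fell and 209 were not called. Their median log2 change was 2.41 in HuRKO and 3.27 in WT cells in the authors' deposited table, where the choice by WT values sets the WT median. Of 372 genes lowered 4-fold or more in WT cells, 240 fell in HuRKO cells, 31 rose and 101 were not called, with medians of -1.70 and -2.75.

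The standard error of the difference of the 2 responses was bounded from the deposited FDR values under a normal approximation, with a Bonferroni correction over the 58780 genes of the annotation. The HuRKO response was more positive for 253 genes (9.78%) and more negative for 270 (10.4%). Of the 253, 111 rose in HuRKO and fell in WT cells, 47 rose in HuRKO cells only by their calls, 43 rose in both, 33 fell in both and 19 fell in WT cells without a call in HuRKO cells. Of the 270, 133 rose in both, 52 fell in HuRKO and rose in WT cells, 35 rose in WT cells without a call in HuRKO cells, 32 fell in both and 18 fell in HuRKO cells without a call in WT cells. A bound misses true differences, so a gene that did not pass is not shown to respond alike, and the list favours genes that differ between the genotypes.

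**Figure D4:**
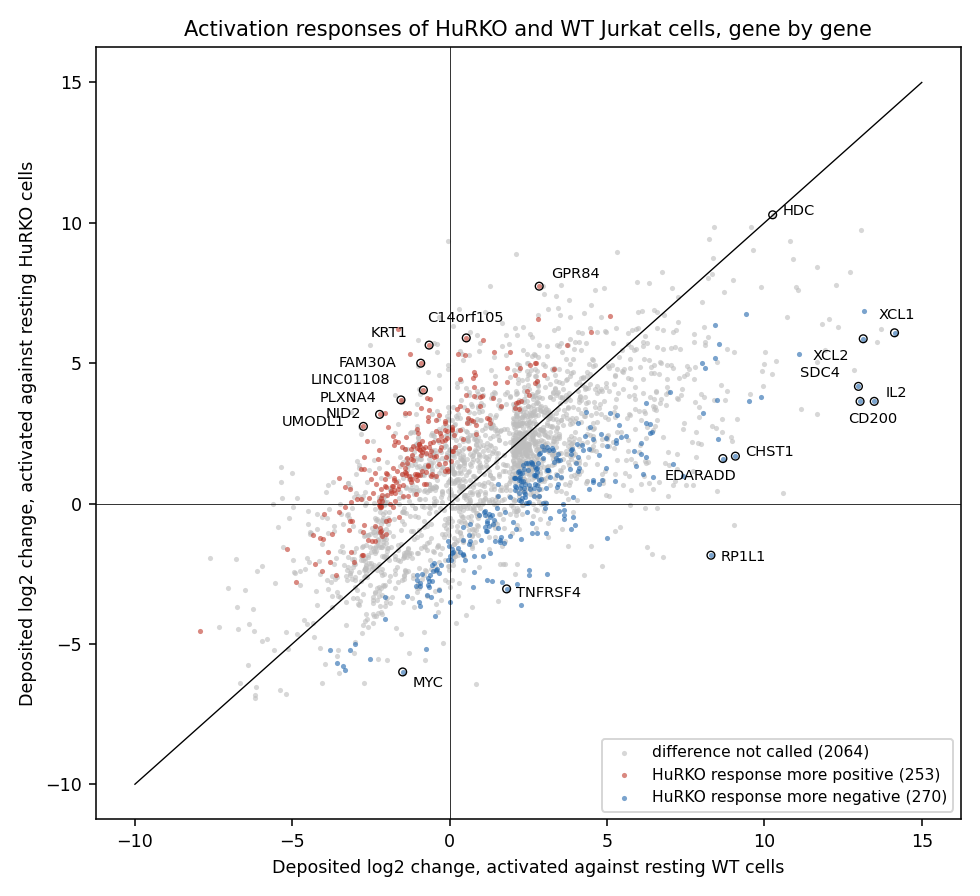
Deposited log2 change on activation in WT cells (horizontal axis) and HuRKO cells (vertical axis) for the 2587 listed genes. Points are genes, red for the 253 more positive and blue for the 270 more negative in HuRKO cells by the bounded test, and the diagonal marks equal responses. HDC lies on the diagonal, IL2, XCL1, XCL2, CD200 and SDC4 lie far to its right, and KRT1 and FAM30A lie above it.

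The largest positive differences were led by genes with little or no rise in WT cells. KRT1, a keratin of skin, went from 38.5 to 1927 in HuRKO cells and from 67.6 to 43 in WT cells, a difference of 6.30 ± 0.34. FAM30A, a long non-coding RNA of the immunoglobulin heavy-chain locus, went from 125 to 3981 in HuRKO cells and from 686 to 363 in WT cells. NID2, a basement-membrane protein, went from 174 to 1569 in HuRKO cells and from 146 to 31.2 in WT cells. All 3 rose in HuRKO cells and fell in WT cells. UMODL1 and PLXNA4, the latter a semaphorin receptor, also rose in HuRKO cells, 6.72-fold and 12.9-fold, and fell in WT cells, 6.69-fold and 2.92-fold. C14orf105 and LINC01108 rose 59.7-fold and 16.5-fold and were not called in WT cells. GPR84 rose in both genotypes, 214-fold in HuRKO and 7.19-fold in WT cells.

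The largest negative differences belonged to genes that WT cells induced strongly. RP1L1, a gene of photoreceptors, went from 1.03 to 325 in WT cells and fell from 6.59 to 1.84 in HuRKO cells, a difference of -10.14 ± 1.19. SDC4, the heparan sulfate proteoglycan syndecan 4, went from 2.62 to 47.3 in HuRKO cells and from below the floor to 5668 in WT cells. CHST1, a sulfotransferase, went from 15.8 to 50.9 in HuRKO cells and from 1.34 to 724 in WT cells. EDARADD, an adaptor of the ectodysplasin receptor, went from 22.1 to 67.2 in HuRKO cells and from 1.99 to 815 in WT cells. Except for RP1L1, the genes of this group (IL2, CD200, SDC4, XCL1, CHST1, XCL2 and EDARADD) rose in both genotypes and differed in size.

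**Figure D5:**
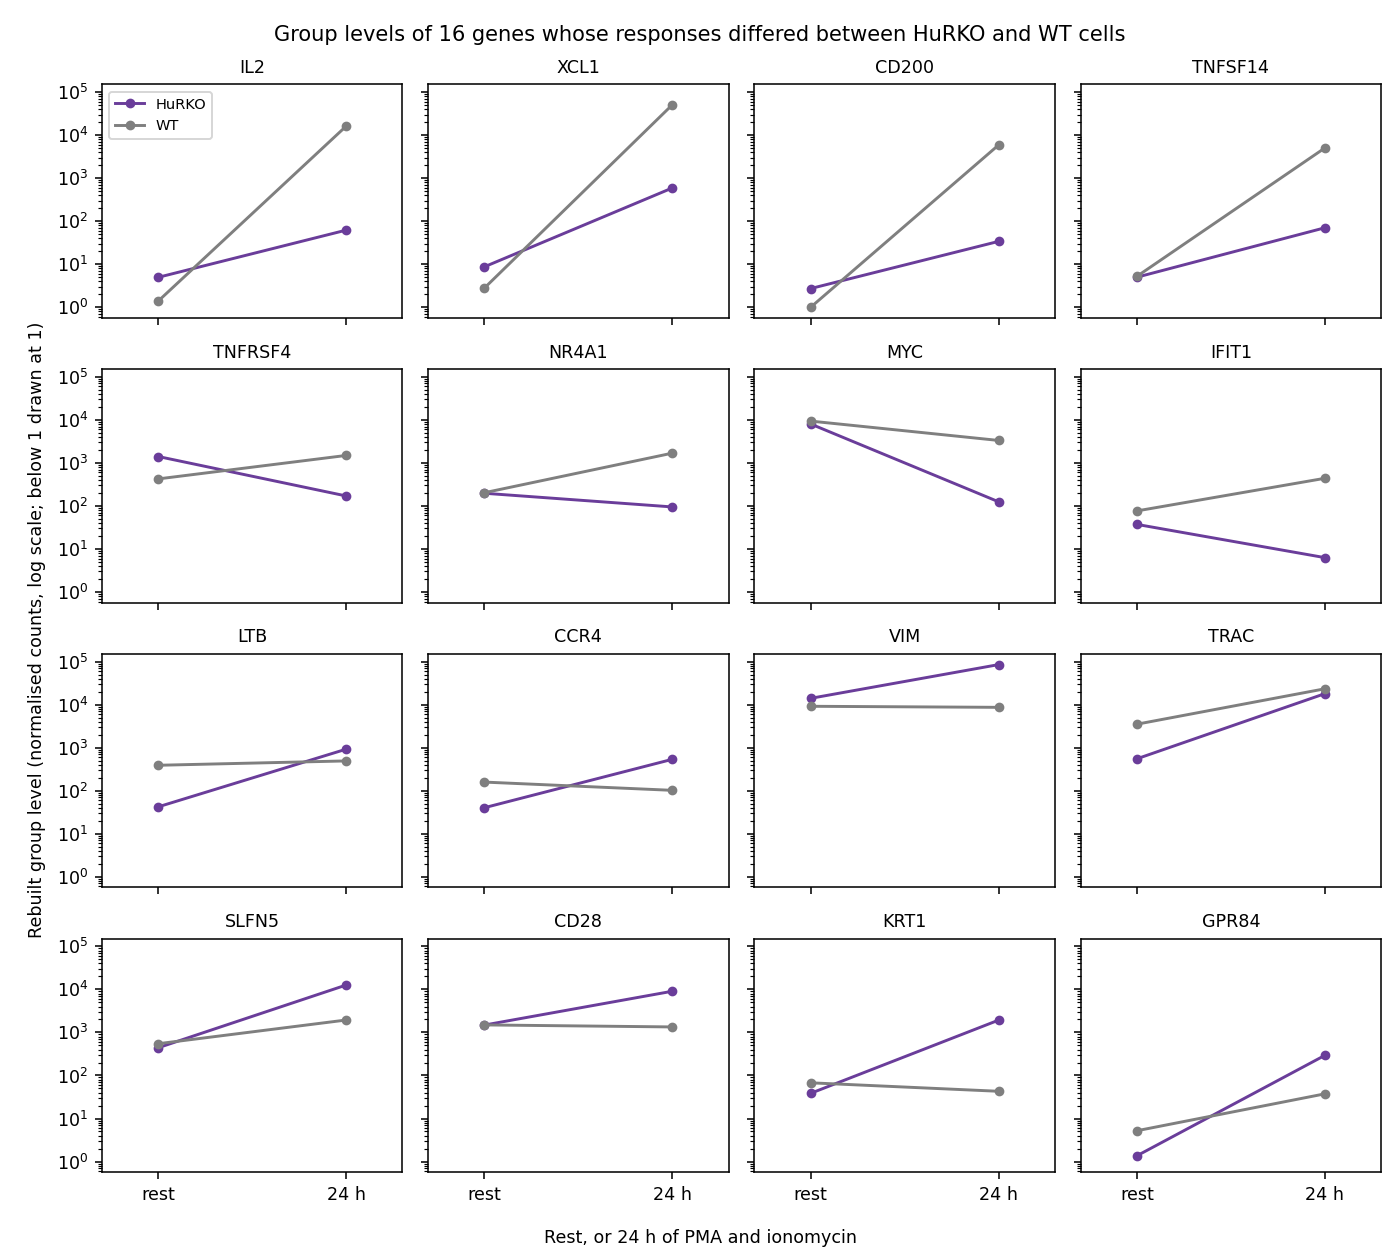
Rebuilt levels (normalised counts, log scale, below 1 drawn at 1) of 16 genes at rest and after 24 h of PMA and ionomycin, with HuRKO in purple and WT in grey, 1 panel for each gene. The responses of all 16 differed by the bounded test. For TNFRSF4 the HuRKO level fell from 1407 to 171 and the WT level rose from 425 to 1488, and MYC, NR4A1 and IFIT1 fell in HuRKO cells.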

How the data were processed

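Per the labels' protocols, RNA of Jurkat cells was extracted with RiboZol and made into directional libraries with an NEBNext Ultra kit. The submitters' processing notes name hg38, Bowtie2 and TopHat. Not given in the sources used here are their versions, the counter and its strandedness, and the authors' statistical test. Per the file headers, the deposited table holds a mean (baseMean), which the authors appear to have averaged over all 12 libraries and which is treated here as a deposited signal in normalised counts, and for 4 comparisons a log fold change and an FDR. The deposited changes are taken as log2 values, an inference. Levels of genes with no or few reads should pile up, and on base 2 the fullest 10% wide interval holds 32.9% of the resting HuRKO levels below the floor, against 5.76% on base e and 2.49% on base 10. The FDR is a p-value adjusted by the authors. No values per library were used, so the depth per sample is unknown. Mean levels lay between 4.87 and 29176 (median 38.9). Unmapped columns of per-sample values numbered 0.

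Summed round the 4 groups, the changes cancel to within 7.1e-14, so equal groups of 3 fix each group level. IDs of 2577 genes matched GENCODE 29 without the version, and coordinates are from it. Rows sharing a symbol number 16. The members of the comparison, the 44 gene lists (43 with a gene in the table) and the difference test were chosen with earlier results of these data known. Named genes were called genes other than pseudogenes, clones and chromosome Y genes. They are the 12 largest rises and 12 largest falls among genes reaching 50 normalised counts, the 8 smallest FDR and the 8 largest passing differences each way, the 6 highest activated levels, up to 4 members of a list that reach 20 normalised counts, and ELAVL1. Other members of a list were named for their role, after their values were seen, and so was the CArG search. Promoters (250 bases before to 50 after the start) are from RefSeq, and 1422 listed symbols had one. Scripts ran in Python 3.11.15 with pandas 2.3.3, numpy 2.4.6, scipy 1.17.1 and matplotlib 3.10.9, and the test of differences between responses (described in the results) was tested on simulated data. Alternatives were other FDR, fold and mean-level thresholds, other variance bounds and corrections, a floor of 5, base e and the other path through the changes. Some genes are not reported here.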

Additional observations from a re-analysis of the deposited data

Results flagged for a closer look

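Responses that differed between HuRKO and WT cells by the bounded normal test numbered 253 more positive and 270 more negative in HuRKO cells. Among the named genes and the members of the gene lists, 29 differences passed that test and were at least 16-fold, 12 of them positive and 17 negative. Values below are HuRKO minus WT responses on the log2 scale, given without explanation.

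RP1L1 differed by -10.14, with HuRKO levels of 6.59 and 1.84. IL2 differed by -9.85 and CD200, a ligand that restrains myeloid cells, by -9.40. SDC4, syndecan 4, differed by -8.81. The lymphotactins XCL1 and XCL2 differed by -8.05 and -7.27. The sulfotransferase CHST1 differed by -7.39 and the adaptor EDARADD by -7.08. CCL1 differed by -6.44 and the ligand TNFSF14 by -6.09. The interferon-induced GBP2 differed by -6.33 and IFIT1 by -5.08. Granzyme H (GZMH) differed by -5.58. TNFRSF4 differed by -4.85 and the inhibitory receptor BTLA by -4.81. MYC differed by -4.51 and NR4A1 by -4.11.

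On the positive side, the keratin KRT1 differed by 6.30 and the non-coding FAM30A by 5.92. UMODL1 differed by 5.49, NID2 by 5.40, C14orf105 by 5.37 and PLXNA4 by 5.24. GPR84 differed by 4.90 and LINC01108 by 4.88. The chemokine receptors ACKR3 and CCR4 differed by 4.39 and 4.37, LTB by 4.11 and ZNF521, a zinc finger factor that went from 210.5 to 498 in HuRKO and from 136 to 19.2 in WT cells, by 4.06.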

How the results depend on the processing

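Counts of genes higher and lower on activation stayed within 1.5 times of 1504 and 479 at FDR below 0.01 and 0.001, at 2-fold, with a mean level of at least 10 and without both RNAs that lack poly(A) tails and genes sharing a symbol. With a mean level of at least 50 they were 759 and 286, since fewer genes were counted, and at 4-fold the lower count was 278. The 196 genes called in opposite directions in the 2 responses became 87 when both changes had to reach 2-fold, and 140 at FDR below 0.01. The difference counts ranged from 246 to 294 and from 268 to 331 over 2 alternatives. A floor of 5 moved 37 of 181 named folds by over 1.5 times, and base e moved 209 of 362 named levels. The other path through the changes moved 0, an outcome fixed in advance because the changes cancel round the groups. Members with a mean level of at least 10 gave 3 list medians that moved and 40 that did not. None of these medians changed sign. Folds, levels and counts are positive by construction, so they could not reverse.

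No paired analysis was possible because the deposited table holds no values per library, and for the same reason leaving out each replicate was not run. Genes near the floor have folds that depend on it, and the list leaves out genes changed in HuRKO activation alone.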

Other observations

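The immunoglobulin heavy-chain locus changed in both directions in HuRKO cells. IGHM, the mu constant region, rose 19.3-fold, from 15.4 to 297, and IGHD rose at least 22.8-fold from below 1 to 22.8. The variable gene IGHV4-34 fell 4.44-fold, from 197 to 44.4, and IGHV3-33 fell 5.76-fold. These 4 genes were chosen after their values were seen, and all are antigen-receptor genes of B cells. Variable genes of the gamma chain of the T-cell receptor rose, TRGV9 4.8-fold, TRGV5 4.69-fold and TRGV3 4.34-fold.

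Zinc finger genes named ZNF were higher in 16 of 27 cases, near the 58.1% of all listed genes, and lower in 1, beside 18.5%. In WT cells 7 were higher and 4 lower, where the shares of all listed genes were 52.0% and 21.8%. ZNF44 rose 6.18-fold, from 92.4 to 571, with WT levels of 121 and 127 that were not called different (difference 2.56 ± 0.28). Clustered protocadherins, cell-surface recognition proteins mostly of neurons, were higher in 5 of 13 cases with 0 lower, against the same 58.1% and 18.5%. Of 17 listed chromosome Y genes, 2 had a called HuRKO response and 10 lay below the floor in both HuRKO groups, beside 37 of all 2587 listed genes below the floor in both and 604 of them not called.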
